A study of Gossypium hirsutum with 8 samples.

Results

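ERF and RAV genes encode plant transcription factors of the AP2/ERF superfamily, and 4 of them could be followed on the cotton array: ERF7 (LOC107941184), RAV (LOC107946446, synonym RAV1), ERF3 (LOC107926309) and ERF8 (LOC107922990). The members were every probe set whose single gene in the platform's probe table carries 1 of these names in RefSeq, which gave 4 of the 246 genes with a name other than a locus number, read by 6 of the 24029 probe sets tested. A probe set is a group of short oligonucleotides that together read 1 transcript or several similar ones. ERF7, ERF3 and ERF8 each had 1 probe set and RAV had 3. Upland cotton (Gossypium hirsutum), cultivar Sicot 71, was grown in soil in a glasshouse to the stage of 2 leaves. There were 4 groups of 2 arrays, labelled biological replicates: whole roots of plants whose root system had been under water for 4 h, whole roots of control plants, first leaves of plants flooded for 24 h, and first leaves of control plants. Tissue and duration of flooding therefore differ together. The number of plants behind an array was not stated, so p-values measure the spread between arrays.

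Proteins with 1 AP2 domain, to which ERF names are given, bind short DNA elements such as the GCC box, and many genes that answer to the gas ethylene carry that element. RAV proteins hold an AP2 domain together with a B3 domain, a second DNA-binding fold found only in plants, and in Arabidopsis RAV1 slows growth. Ethylene gathers in flooded roots because it escapes slowly through water. In Arabidopsis the group VII ERF proteins are destroyed in the presence of oxygen and switch on fermentation genes when oxygen is short, and in rice relatives of that group set how a plant withstands submergence. Numbers in ERF names are not shared between species, so the cotton names say nothing of which Arabidopsis group a gene belongs to.

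The deposited values were log2 signals. Array medians were 6.14 to 6.17 in root and 5.32 to 5.41 in leaf and the lowest signals 3.99 to 4.10 and 2.49 to 2.65, so the tissues share no scale and signals were tested within a tissue. Replicate spread was uneven: the root mean square SD over all probe sets was 0.208 in flooded root and 0.477 in control root, and 0.193 in flooded leaf and 0.315 in control leaf. RCA1, the rubisco activase that serves photosynthesis, read 14.51 to 14.66 on the leaf arrays and 5.22 to 5.89 on the root arrays, on the side its tissue label gives; no root marker was matched by name. In whole organs, a change in the share of a cell type and a change in transcript per cell cannot be told apart. With 2 arrays against 2 an exact permutation test cannot go below p = 0.333 (two-sided), so every test here is limma's, which borrows spread across probe sets and uses all 4 groups, with Benjamini-Hochberg adjustment over all 24029.

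ERF7 had the largest change of the 4 genes in flooded root. Its probe set (GhiAffx.39399.1.S1_at) read 10.15 and 9.16 in flooded roots, against 6.68 and 6.05 in control roots. Both flooded arrays lay above both control arrays, with 2.48 log2 units between the lowest flooded and the highest control signal. The means were 9.66 ± 0.70 in flooded and 6.36 ± 0.44 in control root (SD, n = 2 each), a log2 change of 3.29 (SE 0.35, 95% interval 2.48 to 4.10, limma adjusted p = 0.00139), or 9.79-fold. Of all 24029 probe sets 157 had a larger rise, and of the 324 with a gene name 4 did. The 2 flooded roots differed from each other more than is usual: 98.8% of probe sets had a smaller SD in that group. The change was 2.79 without flooded root replicate 1 and 3.79 without flooded root replicate 2. ERF7 passed the test in all 15 alternative settings, with a largest limma adjusted p of 0.0324 (SE 0.43), from the root arrays fitted alone. Leaving out dim probe sets is 1 of these settings and adds no support, because ERF7 stayed in only through its flooded roots.

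**Figure D1:**
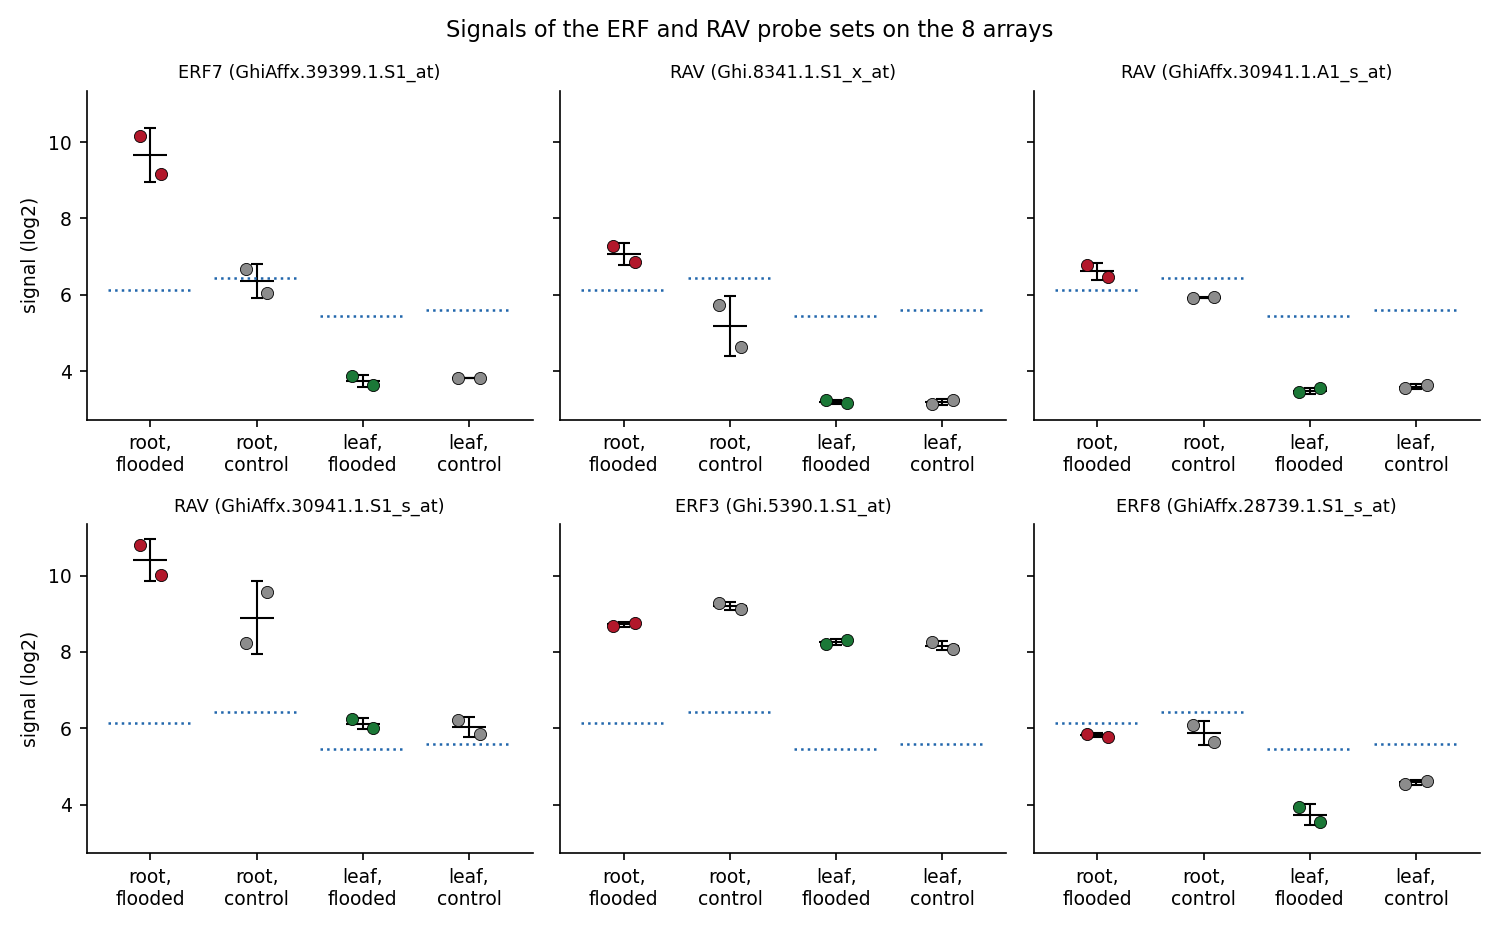
Signals (log2) of the 6 ERF and RAV probe sets on each of the 8 arrays, 1 panel per probe set; points are arrays, horizontal bars and whiskers the mean and SD of 2 arrays, and dotted lines the reporter bound of that group, below which 95% of its 52 reporter means lie. ERF7 stood at 10.15 and 9.16 in flooded root, against 6.68 and 6.05 in control root, and between 3.63 and 3.86 on the 4 leaf arrays.

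The control level of ERF7 was close to that of the array's reporter probe sets. There are 52 probe sets whose names mark them as reporters, taken here as a guide to signal without a cotton target, and the 95th percentile of their means was 6.13 in flooded root and 6.43 in control root. ERF7 in control root (6.36) lay just under that bound. The fold against it is not exact if signals there are background. Of all probe sets, 49.7% in flooded root and 54.3% in control root were under the bound, so lying under it is common.

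RAV was higher in flooded root in all 3 of its probe sets, and 2 of them passed the test. The probe set Ghi.8341.1.S1_x_at read 7.28 and 6.87 in flooded roots, against 5.73 and 4.62 in control roots. Here the groups did not overlap and the log2 change was 1.90 (SE 0.34, 95% interval 1.10 to 2.70, limma adjusted p = 0.0124), or 3.73-fold. Its control mean of 5.18 lay under the reporter bound of 6.43, so this fold too is not exact if signals there are background. Its suffix _x_at marks probes that may also match other transcripts. It no longer passed when flooded root replicate 1 was left out (1.70, limma adjusted p = 0.105) or when the root arrays were fitted alone (limma adjusted p = 0.104). Leaving out control root replicate 1 gave 2.45 and leaving out control root replicate 2 gave 1.34, and it passed in both.

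The second RAV probe set, GhiAffx.30941.1.A1_s_at, changed less. It read 6.77 and 6.46 in flooded roots, against 5.92 and 5.93 in control roots. The log2 change was 0.69 (SE 0.18, 95% interval 0.28 to 1.11), and its limma adjusted p of 0.0499 lies at the threshold of 0.05. It passed in 3 of 14 alternative settings, with limma adjusted p-values of 0.0219 to 0.347, among them 0.347 and 0.106 when the first and the second flooded root were left out in turn, 0.0576 without control root replicate 2, 0.109 without either flooded leaf array and 0.0739 without either control leaf array.

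The third RAV probe set, GhiAffx.30941.1.S1_s_at, was higher in flooded root and did not pass. It read 10.80 and 10.02 in flooded roots, against 8.23 and 9.58 in control roots. The flooded arrays were both higher, by 0.45 at the closest, and the SD of the 2 control arrays was 0.95, wider than in 94.4% of probe sets. The log2 change of 1.51 (SE 0.44, 95% interval 0.47 to 2.55, limma adjusted p = 0.0781) became 2.18 without control root replicate 2 (limma adjusted p = 0.00747) and 0.84 without control root replicate 1 (limma adjusted p = 0.111). The 2 control roots stood in opposite order in 2 of the RAV probe sets: replicate 1 was the higher one in Ghi.8341.1.S1_x_at and the lower one in GhiAffx.30941.1.S1_s_at. The suffix _s_at marks probes shared by several transcripts, which in a species with A and D copies of most genes can include both copies, so which copy each probe set reads was not resolved. In control root the second RAV probe set (5.92) also lay under the reporter bound, and the third (8.90) lay above it.

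ERF3 did not pass the test in root. It read 8.68 and 8.76 in flooded roots, against 9.28 and 9.12 in control roots. Both flooded arrays were lower than both control arrays, by 0.36 at the closest, with a log2 change of -0.48 (SE 0.17, 95% interval -0.88 to -0.08, limma adjusted p = 0.138). After quantile normalization the change passed, at -0.62 over the 8 arrays (limma adjusted p = 0.0457) and -0.64 within each tissue (limma adjusted p = 0.0409). ERF3 lay above the reporter bound in all 4 groups.

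ERF8 did not pass the test in root. It read 5.86 and 5.78 in flooded roots, against 6.09 and 5.64 in control roots, so the flooded pair lay between the control arrays. The log2 change was -0.04 (95% interval -0.55 to 0.47, limma adjusted p = 0.948). ERF8 was under the reporter bound in both root groups.

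Of the 6 probe sets, 3 rose in flooded root (ERF7 and 2 of RAV), 0 fell and 3 did not pass; in limma 10.7% of all probe sets passed, 6.4% higher and 4.28% lower. At an unadjusted p under 0.05, 5 of the 6 were past the threshold, where 22.1% of all probe sets were. The median log2 change of the 6 was 1.10, against -0.02 over all 24029, and 3 of the 6 belong to 1 gene, so these are not 6 independent readings. The groups did not overlap in 4 probe sets that were higher and 1 that was lower, while over all probe sets 25% were higher and 21.4% lower without overlap. The count of 3 fell to 1 (ERF7) with the root arrays fitted alone, and it also fell without flooded root replicate 1. It was 2 with a variance trend and robust prior, array weights, the replicate block or a 2-fold minimum.

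**Figure D2:**
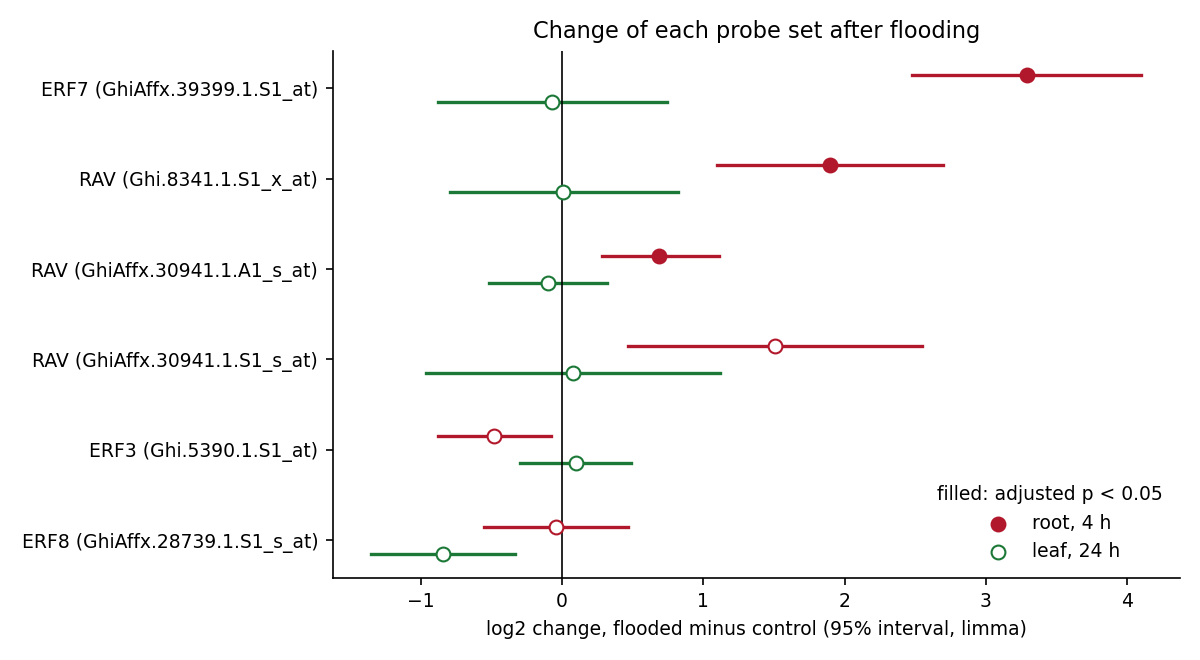
Log2 change (flooded minus control) of each of the 6 probe sets with limma's 95% interval, in root after 4 h (red) and leaf after 24 h (green); filled points passed an adjusted p of 0.05. ERF7 (3.29) and the RAV probe sets (1.90, 0.69 and 1.51) lay to the right of 0 in root, and in leaf ERF8 (-0.84) is the one interval that leaves out 0.

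In the first leaf after 24 h none of the 6 probe sets passed in limma, where 5.25% of all probe sets passed, 2.21% higher and 3.05% lower. At an unadjusted p under 0.05, 1 of the 6 was past the threshold, which is near the 19.2% of all probe sets. Without overlap, 2 of the 6 were lower (ERF8 and the second RAV probe set, the RAV groups meeting at a gap of 0.00) and 0 higher, against 31% lower and 25.5% higher over all. ERF8 had the largest change. It read 3.93 and 3.55 in flooded leaves, against 4.54 and 4.63 in control leaves, with both flooded arrays lower. The log2 change was -0.84 (SE 0.22, 95% interval -1.35 to -0.33, limma adjusted p = 0.0752). It passed with array weights (limma adjusted p = 0.0244) and without either control root array (limma adjusted p = 0.021), settings that change the shared variance and leave the leaf signals as they are. Both leaf groups of ERF8 were under the reporter bounds of 5.45 in flooded and 5.60 in control leaf.

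ERF7 read 3.86 and 3.63 in flooded leaves, against 3.81 and 3.81 in control leaves. Its log2 change of -0.07 had a 95% interval of -0.88 to 0.74 (limma adjusted p = 0.959), which does not reach the size seen in root. The first RAV probe set read 3.24 and 3.17 in flooded leaves, against 3.14 and 3.24 in control leaves, and the second read 3.44 and 3.55 in flooded leaves, against 3.55 and 3.64 in control leaves. In both, flooded and control leaves read nearly alike. The third read 6.23 and 6.01 in flooded leaves, against 6.22 and 5.86 in control leaves. Their log2 changes were 0.01, -0.10 and 0.08, with limma adjusted p-values of 0.992, 0.854 and 0.960. ERF3 read 8.21 and 8.31 in flooded leaves, against 8.25 and 8.08 in control leaves, a log2 change of 0.10 (95% interval -0.30 to 0.49, limma adjusted p = 0.854). In both leaf groups ERF3 and the third RAV probe set lay above the reporter bound. The other 4 probe sets lay under it, a range in which falls may be out of reach.

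The difference between the root change and the leaf change was tested in the same fit. It passed for ERF7, at 3.36 log2 units (SE 0.49, 95% interval 2.22 to 4.50, limma adjusted p = 0.00895), where 8.26% of all probe sets passed and 4.79% were higher. Of 14 alternative settings 13 kept the call. Leaving out dim probe sets is 1 of these and adds no support, because ERF7 stayed in only through its flooded roots. The call was lost without flooded leaf replicate 2 (3.24). For the 3 RAV probe sets the difference was 1.88, 0.79 and 1.43 (limma adjusted p = 0.0577, 0.106 and 0.234), for ERF3 -0.58 (0.208) and for ERF8 0.80 (0.177). The first RAV probe set passed in 4 of 13 alternative settings: without control root replicate 1 (2.44) or 2 (1.33), with a variance trend and robust prior (limma adjusted p = 0.0424) and with array weights (limma adjusted p = 0.0365). The third passed without control root replicate 2 (2.10) and ERF8 without control root replicate 1 (1.02). Since roots were sampled at 4 h and leaves at 24 h, tissue and time cannot be told apart in this difference.

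Because signals of the tissues share no scale, the place of each probe set among the 24029 of its own array was used to set root beside leaf, as a description with no test. ERF7 stood at percentiles 89.8 and 81.7 in flooded root, 55.8 and 47.5 in control root, 26.3 and 19.2 in flooded leaf and 21.0 and 23.1 in control leaf. The groups thus came in the order flooded root, control root and the leaf groups, and the 2 leaf groups overlapped. The third RAV probe set stood at 93.6 and 89.0 in flooded root, 71.8 and 87.7 in control root, 58.6 and 56.5 in flooded leaf and 58.2 and 54.7 in control leaf, again with overlapping leaf groups.

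The first RAV probe set held percentiles of 62.9 and 58.7 in flooded root and 2.34 to 6.48 on the 4 leaf arrays. Its control roots stood at 43.9 and 4.46, so control root replicate 2 reached down into the range of the leaves. The second lay at 57.6 and 53.9 in flooded root, 46.6 and 44.7 in control root and 12.7 to 17.6 on the leaf arrays. ERF3 stood at 77.1 and 77.7 in flooded root, 82.5 and 84.2 in control root and 77.7 to 79.5 on the leaf arrays, where the leaf groups overlapped. ERF8 stood at 45.8 and 44.4 in flooded root, inside the 49.1 and 37.5 of control root. In leaf it stood at 28.2 and 16.8 when flooded and 38.3 and 40.9 in controls.

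**Figure D3:**
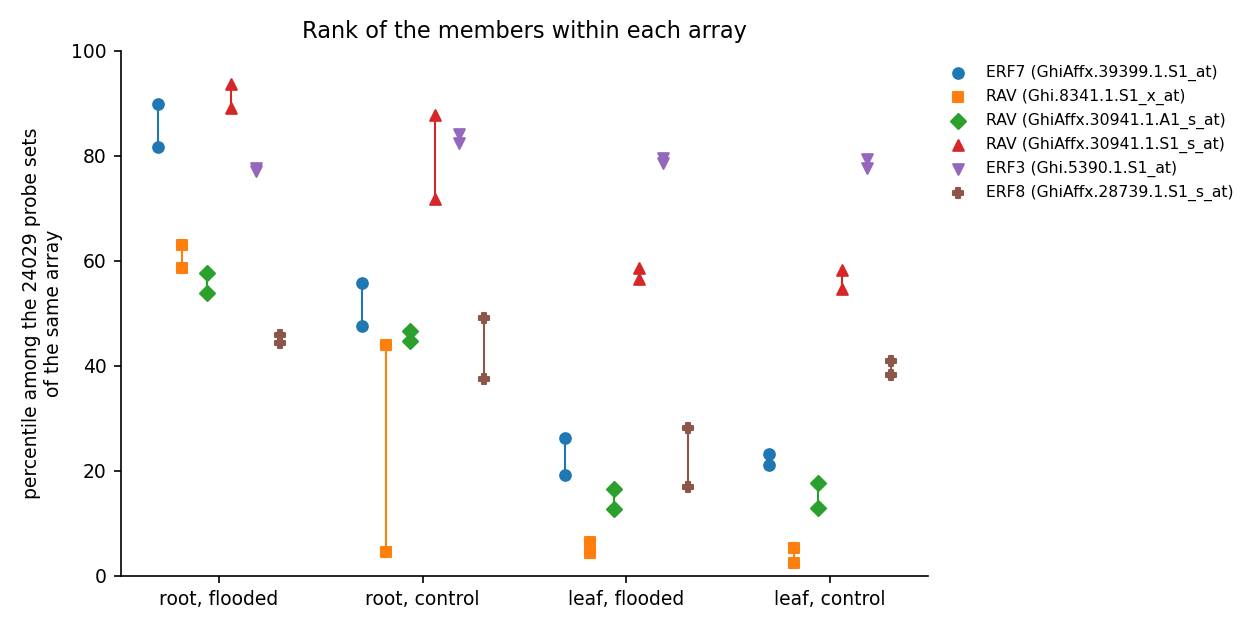
Percentile of each ERF and RAV probe set among the 24029 probe sets of the same array, by group; each pair of joined points is the 2 arrays of a group. ERF3 stayed between 77.1 and 84.2 on all 8 arrays, while ERF7 ran from 19.2 in a flooded leaf to 89.8 in a flooded root.

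Genes around these factors were taken from lists matched by gene name. The other AP2/ERF genes with a name were ERF9 and the DREB/CBF type factors CBF15, CBF17, CBF20 and DBP3b, which bind the drought-responsive element in other species. Of their 7 probe sets 0 passed in root and 0 in leaf in limma, where 10.7% and 5.25% of all probe sets passed. In root their median log2 change was 0.02, and the smallest p-values were those of a CBF17 probe set (GhiAffx.33925.1.S1_at, -0.83, limma adjusted p = 0.0893) and DBP3b (-0.94, limma adjusted p = 0.169). At an unadjusted p under 0.05 3 of the 7 were past the threshold in root, where 22.1% of all probe sets were, and 2 in leaf, where 19.2% were, the 2 in leaf being those of CBF17 (0.56, limma adjusted p = 0.109, and 0.61, limma adjusted p = 0.243). Without control root replicate 1, 2 of the 7 fell in root, and without either control root array 1 rose in leaf.

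Upstream of the ERF proteins lies ethylene itself, made by ACC synthase (ACS symbols) and then ACC oxidase (ACO symbols). Of 9 probe sets with such symbols 1 rose and 2 fell in root, where 6.4% of all probe sets rose and 4.28% fell. The median log2 change of the 9 was -0.57. A probe set of the gene ACS (Ghi.23.4.A1_at) read 8.45 and 6.85 in flooded roots, against 5.57 and 5.72 in control roots (log2 change 2.00, limma adjusted p = 0.0372), while its other 3 probe sets had changes of -0.10 to 0.20. Of these, Ghi.23.4.S1_x_at shares the number 23.4 with the one that rose, and its root change was 0.06 (limma adjusted p = 0.957). Which strand each reads was not resolved. ACS1 (-1.06, limma adjusted p = 0.0115) and ACS3 (-1.70, limma adjusted p = 0.0216) fell. The symbol ACS has more than 1 use in plants, so what these genes encode is uncertain. None of the 3 calls held without each root array: ACS was lost without flooded root replicate 1 (1.21) or either control root array (1.93 and 2.08) and without any leaf array, ACS1 without either flooded root array (-1.19 and -0.93), and ACS3 without the second flooded root (-1.12) or 1 of the flooded leaves. In leaf 0 of the 9 passed in limma (2 at an unadjusted p under 0.05, near the 19.2% of all probe sets: ACS3 at -1.28, limma adjusted p = 0.0865, and an ACO1 probe set at -1.14, limma adjusted p = 0.247), and 1 fell without either flooded root array.

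Among 10 probe sets of genes known from low-oxygen responses 3 rose and 1 fell in root, where 6.4% of all probe sets rose and 4.28% fell. The median log2 change of the 10 was -0.09. The list held 7 genes, namely AOX1, sucrose synthases and genes named XTH. No fermentation gene was matched by name, so these counts do not describe the low-oxygen response as a whole. The rises were AOX1, the alternative oxidase of mitochondria (3.83, limma adjusted p = 0.000671), and both probe sets of the sucrose synthase SusA1 (3.53 and 1.5; limma adjusted p = 0.000889 and 0.0127), the second of which was lost without flooded root replicate 1. Both SusA1 probe sets share the number 8050.1 in their names and differ in S1 and A1, and which strand each reads was not resolved. The fall was in 1 of the probe sets of the wall enzyme XTH (-2.60, limma adjusted p = 0.0323), a call lost without flooded root replicate 1, either control root array or either flooded leaf array. In leaf 0 rose and 1 fell, where 2.21% of all probe sets rose and 3.05% fell. The fall was again in XTH (-3.33, limma adjusted p = 0.0253). That call was lost when either flooded leaf or the first control leaf was left out. The list had 2 falls when 1 of the control roots was left out.

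Of 32 probe sets of other transcription factor families, 2 rose and 2 fell in root, where 6.4% of all probe sets rose and 4.28% fell. The median log2 change of the list was 0.12. MYB5 (LOC107912305, 3.47, limma adjusted p = 0.000733) and 1 probe set of NAC2 (1.5, 0.0319) rose. The other NAC2 probe set did not pass (1.18, limma adjusted p = 0.0637). GHMYB36 (-2.37, limma adjusted p = 0.00298) and the DELLA type growth repressor GAI2 (-1.24, 0.0224) fell. Calls of NAC2 were lost without 1 of the flooded arrays of either tissue or control root replicate 1 (where 4 of the list rose), and those of GAI2 without 1 of the flooded arrays, while those of MYB5 and GHMYB36 were kept in every alternative setting that gave a value. With dim probe sets left out MYB5, like ERF7, stayed in only through its flooded roots, so that setting adds no support for it. In leaf 2 rose, NAC5 (1.48, limma adjusted p = 0.0244) and MYB1 (1.19, limma adjusted p = 0.0388), where 2.21% of all probe sets rose. Of the list 0 fell in leaf, where 3.05% of all did (1 at an unadjusted p under 0.05, where 9.45% of all probe sets were lower). Leaving out 1 leaf array or 1 flooded root ended both calls, and 4 rose without either control root array. Whether the members differ from these lists in the share called was not tested.

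**Figure D4:**
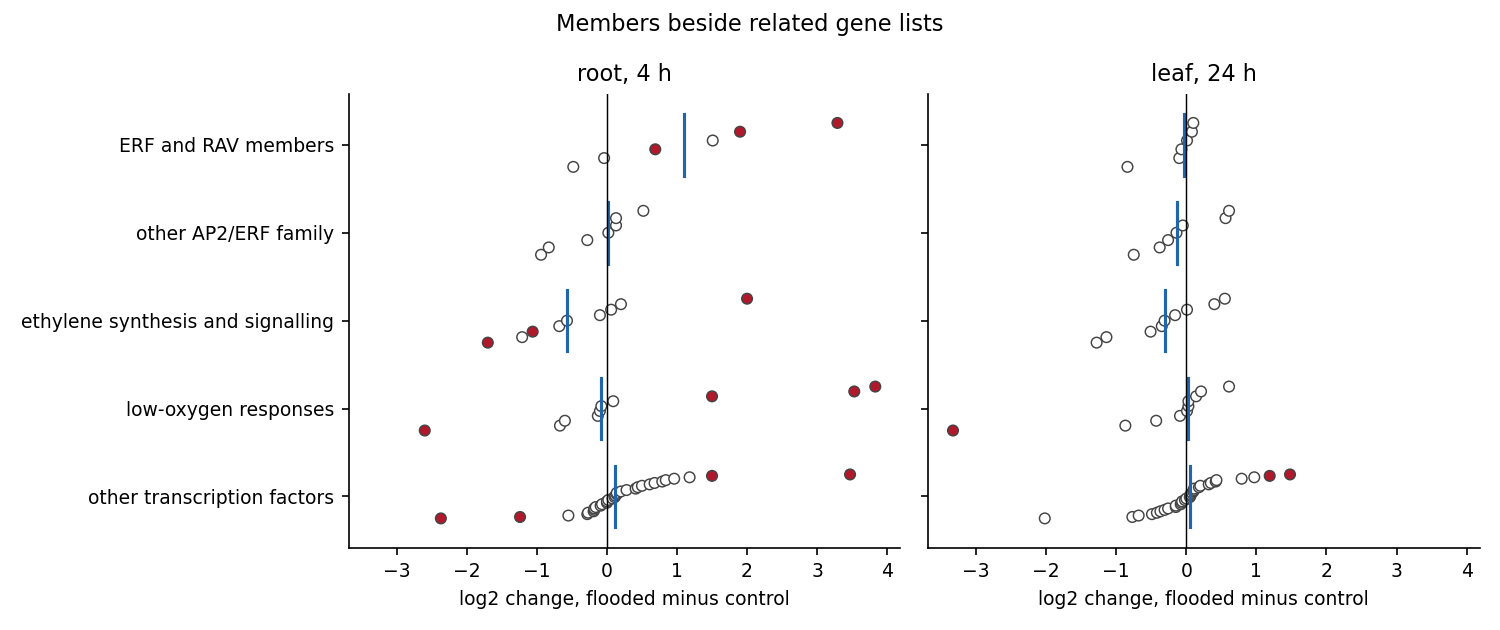
Log2 changes (flooded minus control) of the 6 ERF and RAV probe sets above those of 4 related gene lists, in root after 4 h (left) and leaf after 24 h (right); each point is a probe set, filled where limma's adjusted p was under 0.05, and the blue bar is the list's median. In root the members have a median of 1.10, against 0.02 for the 7 probe sets of other AP2/ERF genes.

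Genes that resembled the members most were looked for among the other named probe sets. Each probe set was set relative to its own mean over the 8 arrays, and likeness was the root mean square difference from the member's profile, in log2 units, smaller being more alike. For ERF7 the nearest were AOX1 (0.348), ASP3 (0.360) and SusA1 (0.584), out of 323 candidates, beside a root mean square of 2.43 for ERF7's own profile. AOX1 read 11.35 and 10.25 in flooded roots, against 6.96 and 6.97 in control roots, and 4.11 to 4.46 in leaf. ASP3 read 11.51 and 11.20 in flooded roots, against 8.60 and 8.15 in control roots, and 5.0 to 6.04 in leaf. In AOX1 and ASP3, as in ERF7, flooded root replicate 1 was the higher one of its pair, and in SusA1 (9.04 and 9.20) it was the lower one. These values are a description only, since the same arrays chose the genes for their likeness to ERF7.

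For the first RAV probe set the nearest were BNLGHi8377 (0.346), GST, a glutathione S-transferase (0.431), and CBL1, a calcineurin B-like calcium sensor (0.444), beside 1.64 for RAV's own profile. Their log2 changes in root were 2.15 for BNLGHi8377, 1.25 for GST and 0.99 for CBL1, given as a description because the same arrays chose them. In all 3, as in this RAV probe set, control root replicate 2 was the lower one of its pair. Much of each profile is the gap between the tissues, which these probe sets share and which also holds the difference in scale between root and leaf arrays.

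**Figure D5:**
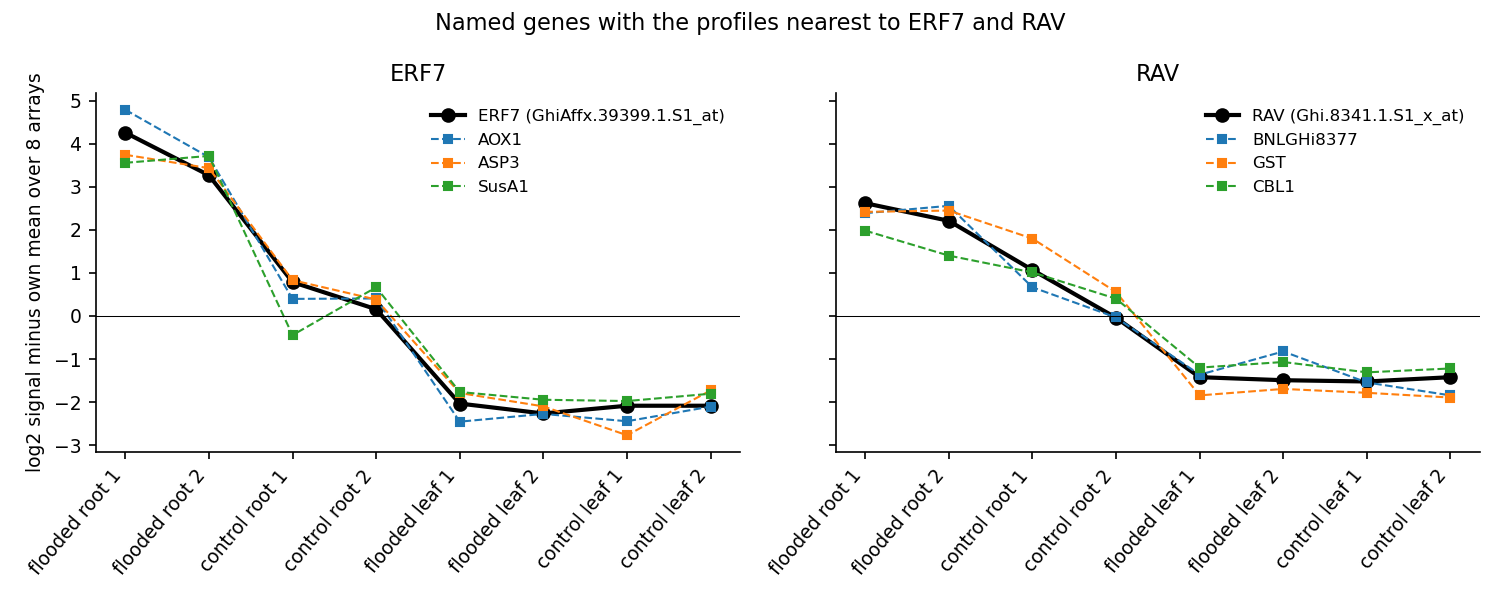
Profiles over the 8 arrays of ERF7 (left) and of the RAV probe set Ghi.8341.1.S1_x_at (right, black) with the 3 named genes nearest to each (dashed); the vertical axis is log2 signal minus the probe set's own mean over the 8 arrays. AOX1 follows ERF7 with a root mean square difference of 0.348.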

How the data were processed

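Signals of 24132 probe sets on 8 arrays were deposited by the authors on a log2 scale, with a sample for each column. The submitters' processing notes list RMA and limma without version or role; per the labels, biotin-labelled cRNA was made from total RNA. Neither background correction nor scaling was changed.

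After leaving out 103 control probe sets, all 4 groups were fitted together, each with its own mean, in limma 3.58.1 (R 4.3.3), with 4 residual and 3.48 prior degrees of freedom, no filter and no pseudocount. The 52 reporter probe sets stayed among the 24029 tested. The fit was tested on simulated root data, in 5 draws with 200 changed probe sets. Of changes of 2 log2 units 92.2% were recovered and of changes of 1 log2 unit 18.2%, and 6.19% of calls were false. A change of 1 log2 unit can therefore often fail to pass. Gene names were taken from the platform annotation, joined by gene identifier to RefSeq genes of assembly Gossypium_hirsutum_v2.1: 697 probe sets had 1 gene, all matched, 46 had several and 23286 none.

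Members, lists and tests were chosen with earlier results of these data known. All members are named. Of each list up to 4 called probe sets of smallest p are named, or the 2 of smallest p, and for each member gene the 3 nearest profiles. List patterns were matched to names and not to product descriptions, which were not used here; the DBP names were added to the AP2/ERF list after the annotation was seen, and HB4 was left out as ambiguous. The alternatives were array weights, a variance trend with robust prior, 2 quantile normalizations, leaving out dim probe sets, a 2-fold minimum, each tissue alone, the replicate block and leaving out each array; applying them to the lists was chosen after seeing the data.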

Additional observations from a re-analysis of the deposited data

Results flagged for a closer look

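The flooding response of ERF7 differed between root at 4 h and leaf at 24 h by the interaction test. The root change (3.29) exceeded the leaf change (-0.07) by 3.36 log2 units (limma adjusted p = 0.00895). Tissue and duration cannot be told apart in it, and the call was lost without flooded leaf replicate 2. ERF7 in leaf (3.74 flooded, 3.81 control) lay under the reporter bounds of 5.45 and 5.60. Both flooded roots were higher than both control roots, while the leaf groups overlapped.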

How the results depend on the processing

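The number of ERF and RAV probe sets called in root was 3, against 4 after either quantile normalization (3 higher and ERF3 lower). It was 2 with a variance trend and robust prior, array weights, the replicate block or a 2-fold minimum. With dim probe sets left out it was also 2, and with root fitted alone 1. In leaf it was 0, against 1 (ERF8) with array weights. For the difference of the changes it was 1, against 2 with a variance trend and robust prior and 2 with array weights. Calls of members also changed when single arrays were left out. Over all probe sets, 2566 were called in root, against 1399 with array weights, 1021 with root alone and 997 to 6781 with single arrays left out. In leaf 1262 were called, against 3034 with array weights, 2106 with leaf alone, 811 with the replicate block and 0 to 3245 with single arrays left out (0 in limma without flooded leaf replicate 1, where 2642 had an unadjusted p under 0.05). For the difference 1985 were called, against 473 to 5294 with single arrays left out. The share of root calls that rose was 59.9%, against 51.7% and 51.8% after quantile normalization over the 8 arrays and within each tissue. Changes that turned sign were all small: ERF8 in root was 0.07 and 0.05 after the 2 quantile normalizations and -0.27 to 0.18 with single arrays left out. In leaf ERF7 was 0.03 after either and -0.18 to 0.05, the first RAV probe set -0.04 to 0.07 and the third -0.10 to 0.26. The cause was not tested.

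The labels do not say what arrays with the same replicate number share. Correlations of their deviations from the group means were -0.187 to 0.059. With 2 arrays a group these cannot show whether a plant or a day was shared. With the replicate block, 2 of the 3 member calls in root were kept, and the second RAV probe set had a limma adjusted p of 0.0864. With dim probe sets left out (12273 kept), 3 of the 6 members remained in the table, and the third RAV probe set passed in root (limma adjusted p = 0.0397). ERF7 was among the 3 only through its high flooded roots. The number of arrays and signals near the reporter level limit the precision.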

Other observations

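Values of other named AP2/ERF genes were as follows. CBF17 (Ghi.4480.1.S1_s_at) read 13.19 and 13.10 in flooded roots, against 13.35 and 13.51 in control roots, and 12.26 and 12.10 in flooded leaves, against 11.64 and 11.59 in control leaves. ERF9 read 5.17 and 5.16 in flooded roots, against 5.03 and 5.05 in control roots (Ghi.9880.1.A1_s_at). CBF20, which carries the synonym DREB1C, read 11.74 and 11.63 in flooded roots, against 11.14 and 11.19 in control roots, and did not pass (log2 change 0.52, limma adjusted p = 0.207). The second CBF17 probe set (GhiAffx.33925.1.S1_at) had changes of -0.83 in root and 0.61 in leaf, and the difference of -1.44 did not pass (limma adjusted p = 0.0520).

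For ERF3 the nearest named profiles were Chia7 (root mean square difference 0.0993), GRPL1 (0.165) and cva69.24 (0.173), and for ERF8 EF1A2, a translation elongation factor (0.194), SMT1 (0.215) and a second probe set of GRPL1 (0.224). EF1A2 read 11.06 and 11.30 in flooded leaves, against 12.11 and 12.23 in control leaves (log2 change -0.99), a description only, since the same arrays chose it for its likeness to ERF8, which was under the reporter bound in leaf.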
